A study of Mus musculus with 20 samples.

Results

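The kidneys of 10 mice that had lost *Pkd2* in the tubules, 5 XY males and 5 XX females, were compared with each other for the level of every autosomal gene. They are the mice labelled Pkd2fl/fl; Pax8; Tet-O-Cre + among 20 in all, and the other 10 are the controls. *Pkd2* encodes polycystin-2, a cation channel of the primary cilium, and its loss in tubule cells leads to cysts. In this inbred C57BL/6 model the Pax8 promoter drives the doxycycline-dependent activator in all tubule segments, and Cre removes the floxed gene once DOX is given. Mutants and controls alike received DOX at 50 mg per kg from P27 to P29 and were killed at P125, and controls lacked either the activator or Cre. The male mutants are named MM1 to MM5 and the female mutants FM1 to FM5. They came from 3 litters: MM1, MM2 and FM1 from litter A, MM3, MM4, FM2, FM3 and FM4 from litter B, and MM5 and FM5 from litter C. Each mouse gave 1 library, so the spread between mice is biological and technical at once.

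The mouse kidney is one of the most sexually dimorphic organs outside the reproductive tract, and most of that dimorphism lies in the proximal tubule. Testosterone acts there on the androgen receptor and raises enzymes and transporters for steroids, fatty acids and drugs, while other genes of the same families are higher in females. Secretion of growth hormone and prolactin also differs between the sexes and reaches the kidney through their receptors.

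Libraries held 11307741 to 19324073 counts. FM4 stood apart, with 14850 genes detected and 76 genes at exactly 1 count, against at least 16776 and 708 in the other 19 libraries, so the main counts are also given without it. FM3 carried transcripts of fat: the summed level of 8 adipose markers (among them *Adipoq*, *Plin1* and *Cfd*) was 476 CPM in FM3 and 59.2 CPM in MM4, and at most 12.2 CPM in the other 8 mutants. CPM are counts scaled to a common library size after TMM normalization. Relative kidney weight (KBW, kidney weight as a percentage of body weight) was 2.15, 1.22, 1.79, 1.54 and 1.71% in MM1 to MM5 and 1.38, 1.24, 1.46, 0.836 and 1.00% in FM1 to FM5, and the groups overlapped. The targeted gene *Pkd2* was at 109.7, 124, 109.7, 133 and 120.1 CPM in the 5 males and 150.1, 133, 94.7, 182 and 166 in the 5 females, below the mean of 291 CPM in male controls and 257 CPM in female controls. Its level in the mutants overlapped between the sexes (log2 fold change −0.27 ± 0.16 (SE), adjusted p = 0.28), and *Pkd1*, which encodes the partner polycystin-1, overlapped as well (log2 fold change −0.04 ± 0.23 (SE), adjusted p = 0.93). The counts are of whole genes and do not separate the floxed part.

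Of 13914 autosomal genes tested, 755 (5.43%) differed between male and female mutants at an adjusted p under 0.01 (edgeR quasi-likelihood test, litter as covariate), and such genes are called here. In 501 of them (3.6% of those tested) the level was higher in males, and in 254 (1.83%) it was higher in females. The difference exceeded 2-fold in 220 of the male and 126 of the female genes and 8-fold in 41 and 23. The 5 males and the 5 females did not overlap in 709 of the 755 genes, and among all genes tested this was so in 13.4%. Every one of the 755 had the same sign within each of the 3 litters, as had 61.7% of all genes tested. The median log2 fold change of all tested genes, male over female, was −0.03. Without FM4, 1286 genes (9.14%) were called, 906 (6.44%) higher in males and 380 (2.7%) higher in females, and 747 of the 755 were among them. DESeq2 called 1907 (13.7%), 1176 (8.45%) higher in males and 731 (5.25%) higher in females. The number called by edgeR was lower without some other mice: 237 in all without FM1, 247 without FM5 and 250 without MM5. It was 339 without MM3, 375 without MM4 and 464 without FM2. FM1 was the only female of litter A, and litter C held only MM5 and FM5. Without FM1, MM5 or FM5 the sexes were compared within fewer litters, and the part of this in the lower counts was not tested. In 216 genes, 160 higher in males and 56 higher in females, the call held with each of the 10 mice left out.

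**Figure D1:**
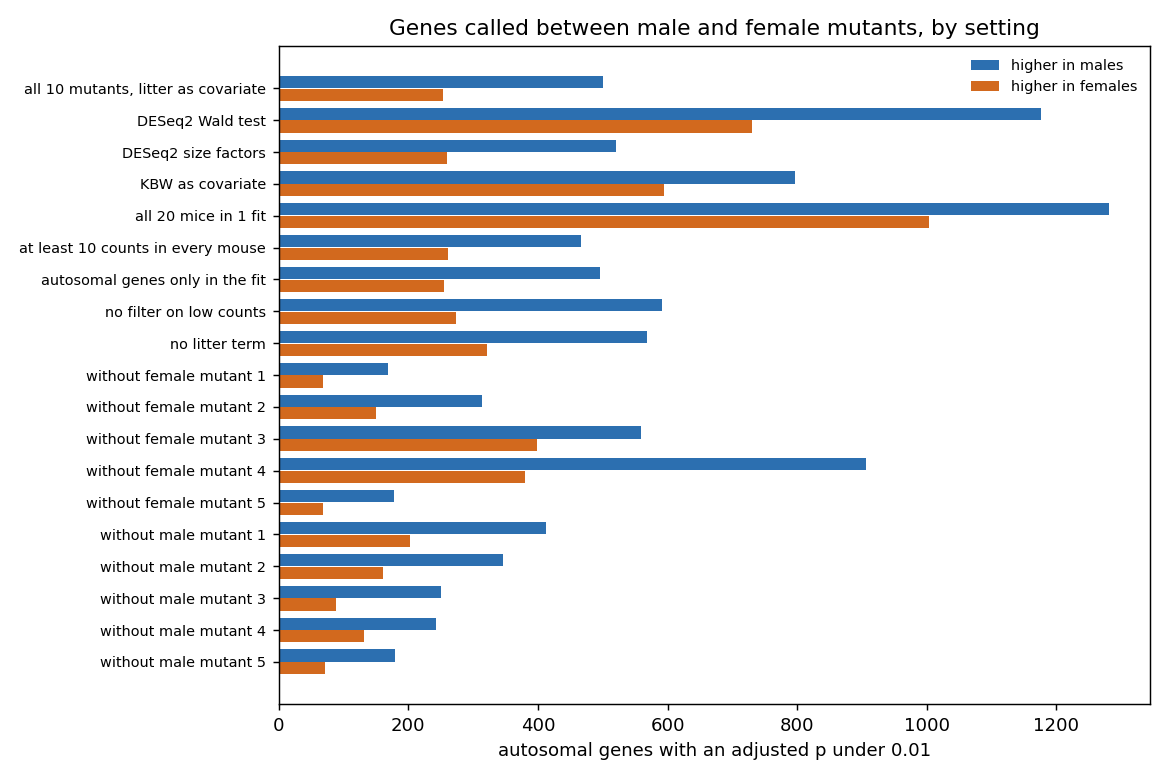
Number of autosomal genes called between male and female mutants (horizontal axis, linear from 0) under each setting of the analysis, with genes higher in males in blue and genes higher in females in orange. The bars range from 168 and 69 without FM1 to 1281 and 1004 with all 20 mice in 1 fit, and the blue bar is the longer of each pair.

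The list of androgen-responsive kidney genes had 17 of its 20 members higher in males and 1, *Serpina1f*, higher in females, with a list median of 2.08 against −0.03 for all genes. This list was defined by response to androgen and chosen with earlier results of these data known, so its share is no independent test. Of all genes tested, 3.6% were higher in males and 1.83% higher in females, the background for this and each later list. With each mouse left out, these shares were 1.2 to 6.44% and 0.492 to 2.85%. *Slc7a13*, a transporter of acidic amino acids and cystine in the late proximal tubule, was at 948, 1154, 1066, 1037 and 1321 CPM in the 5 males and 1.11, 2.04, 1.77, 1.21 and 2.00 in the 5 females. Every male lay above every female (log2 fold change 9.44 ± 0.20 (SE), adjusted p = 1.4e-09). Females had almost none of it. *Kap*, the kidney androgen-regulated protein, with more counts than any other called gene, was at 26932, 31263, 27797, 23204 and 35382 CPM in the 5 males and 8916, 8207, 2593, 8366 and 10054 in the 5 females. All males exceeded all females (log2 fold change 1.89 ± 0.31 (SE), adjusted p = 0.0033). FM3 was far below the other females. Without FM1, FM5, MM3, MM4 or MM5 the call of *Kap* ended, with an adjusted p of up to 0.021. *Cyp2e1*, a P450 that oxidizes ethanol and other small molecules, was at 1591, 2344, 1928, 1761 and 2546 CPM in the 5 males and 184, 157, 160.2, 181 and 342 in the 5 females. No female reached the lowest male (log2 fold change 3.35 ± 0.17 (SE), adjusted p = 1.5e-06). The summed level of the list was 45304 to 64529 CPM in males and 6277 to 15764 CPM in females. Of the 20, 12 (without MM5, FM1 or FM5) to 18 (without FM3) were higher in males when each mouse was left out. In bulk RNA, fewer cells of a type and less RNA per cell cannot be told apart.

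**Figure D2:**
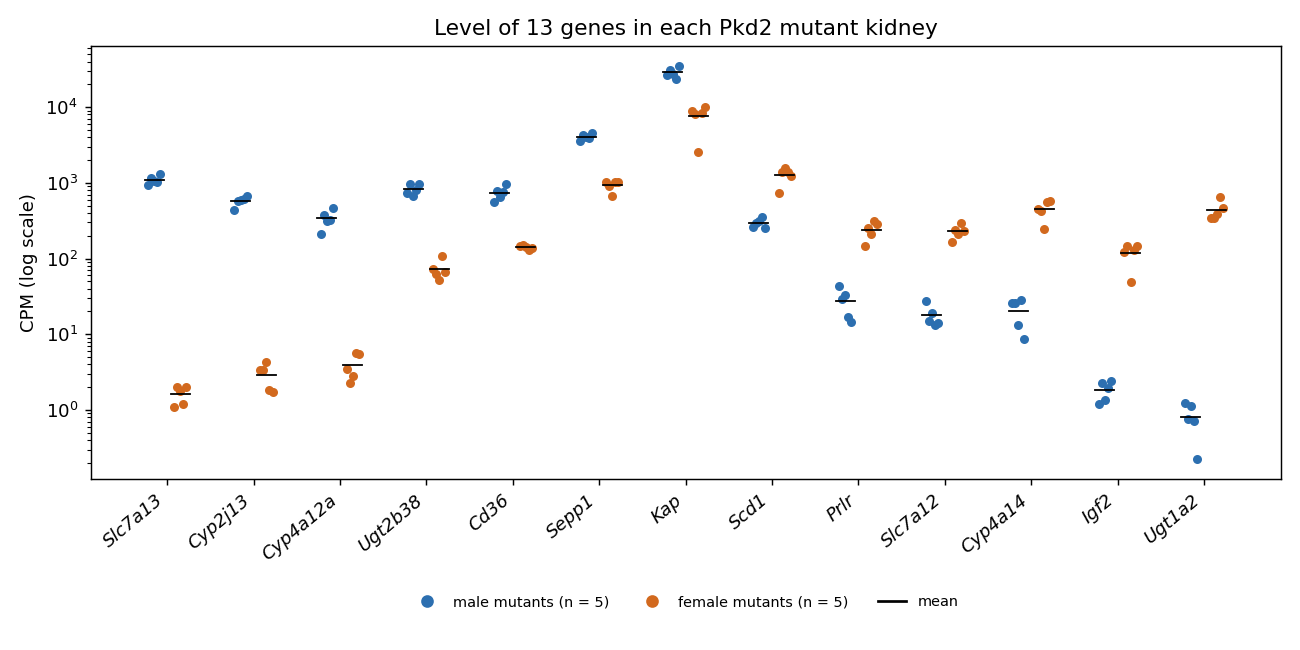
Level of 13 genes in each of the 10 mutant kidneys (vertical axis, CPM on a log scale), with males in blue, females in orange and the mean of each group as a black line. *Slc7a13* to *Kap* are higher in males and *Scd1* to *Ugt1a2* higher in females, and in none of the 13 do the groups overlap.

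Cytochrome P450 enzymes, which hydroxylate steroids, fatty acids and drugs, differed in both directions: 12 of 42 tested were higher in males and 5 higher in females, with a median of −0.08. The lists share genes: *Cyp2j13* and *Cyp4a12a* here, and *Slco1a1*, *Slc7a13* and *Acsm3* in later lists, are also in the androgen list. Counts of different lists are therefore not independent. Neighbouring genes of the Cyp4 family, the fatty acid omega-hydroxylases, went opposite ways. On chromosome 4, between positions 115299046 and 115647721 (GRCm38), *Cyp4a12a*, *Cyp4a12b*, *Cyp4a32* and *Cyp4b1* were higher in males, and *Cyp4a14* in the same span was higher in females. *Cyp4a12a* was at 209.8, 378, 318, 319 and 470.2 CPM in the 5 males and 3.53, 2.28, 2.78, 5.60 and 5.52 in the 5 females. The males and females stood apart, with males higher (log2 fold change 6.48 ± 0.27 (SE), adjusted p = 4.0e-07). *Cyp4a14* was at 25.7, 25.6, 13.2, 28.7 and 8.75 CPM in the 5 males and 457, 420.4, 245, 557 and 569.8 in the 5 females. Every female lay above every male (log2 fold change −4.57 ± 0.37 (SE), adjusted p = 3.2e-05). *Cyp2j13*, of the arachidonic acid epoxygenase family, was at 437, 578, 588, 607 and 674 CPM in the 5 males and 3.33, 3.42, 4.30, 1.81 and 1.70 in the 5 females. Every male lay above every female (log2 fold change 7.65 ± 0.28 (SE), adjusted p = 2.0e-07). *Cyp4b1* averaged 4698 ± 839 CPM in males and 483 ± 127 CPM in females (SD, n = 5 each). Near-identical copies such as *Cyp4a12a* and *Cyp4a12b* may share reads, so the split between them is uncertain. With each mouse left out, 8 (without FM1) to 12 P450 genes were higher in males and 1 (without MM4, MM5, FM1 or FM5) to 5 higher in females.

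Conjugation enzymes, which attach glucuronic acid, glutathione or acetyl groups to such compounds, were called for 6 of 42 members in each direction. Without FM4 it was 11 higher in males and 6 higher in females, and without the other mice 4 (without FM1, FM2, FM5, MM1, MM3, MM4 or MM5) to 9 and 5 to 7. *Ugt8a*, which makes galactosylceramide, was at 97.7, 142, 147, 168 and 138 CPM in the 5 males and 16.3, 19.6, 17.7, 23.6 and 14.6 in the 5 females. All males exceeded all females (log2 fold change 3.01 ± 0.14 (SE), adjusted p = 1.2e-06). *Ugt2b38*, a glucuronosyltransferase, averaged 827 ± 136 CPM in males and 72.0 ± 20.9 CPM in females (SD, n = 5 each). On the female side, *Ugt1a2* was at 1.24, 0.752, 1.11, 0.726 and 0.226 CPM in the 5 males and 339, 343, 386, 653 and 464 in the 5 females. All females exceeded all males (log2 fold change −9.01 ± 0.37 (SE), adjusted p = 3.2e-07). All *Ugt1a* transcripts end in the same exons, so counts of *Ugt1a2* and *Ugt1a1* (log2 fold change −3.57) may be split between them. The call of *Ugt1a1* ended without MM3, MM5 or FM5 (adjusted p up to 0.017). *Ugt2b34* averaged 26.0 ± 3.98 CPM in males and 103 ± 15.7 CPM in females. The glutathione transferases *Gsta4* and *Gsta2*, which share a block on chromosome 9, were higher in females as well (log2 fold changes −2.44 and −2.57), and so was *Gm10639* between them (−3.75).

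The organic ion transporters, which carry drugs, urate and steroid conjugates across the proximal tubule cell, were called for 20 of 40 members, 11 higher in males and 9 higher in females. With each mouse left out it was 7 (without MM5, FM1 or FM5) to 13 (without FM4) higher in males and 2 (without MM3, MM5 or FM5) to 10 (without MM1) higher in females. *Slco1a1*, an uptake carrier for organic anions, was at 322, 820.1, 513, 715 and 972 CPM in the 5 males and 0.252, 0.120, 0.304, 0 and 0.470 in the 5 females. No female reached the lowest male (log2 fold change 11.40 ± 0.44 (SE), adjusted p = 2.3e-07). Females had 8 counts at most. *Slc22a30* averaged 152 ± 31.5 CPM in males and 7.77 ± 3.74 CPM in females, and its neighbour on chromosome 19, *Slc22a29*, averaged 3.77 ± 1.13 CPM in males and 62.1 ± 23.0 CPM in females (SD, n = 5 each), so these related carriers went opposite ways. *Slc22a6* (log2 fold change 1.66), *Slc22a2* (1.18) and *Slc22a12* (1.61), the main basolateral anion carrier, a cation carrier and the urate exchanger, were higher in males. *Abcc3*, an efflux pump for conjugates, was at 9.78, 3.69, 5.50, 10.0 and 3.27 CPM in the 5 males and 124, 100.4, 64.9, 108 and 116 in the 5 females. No male reached the lowest female (log2 fold change −4.03 ± 0.33 (SE), adjusted p = 3.5e-05). The efflux pumps *Abcc1*, *Abcc4* and *Abcb1b* were also higher in females, with log2 fold changes of −0.68 to −0.94. The calls of *Abcc4* and *Abcb1b* ended without MM2, MM3, MM4, MM5, FM2, FM3 or FM5, and that of *Abcc4* also without FM1 (adjusted p up to 0.056). *Abcc1* lost its call without MM3, MM5, FM1 or FM5 (up to 0.023) and *Slc22a2* without MM5, FM1 or FM5 (up to 0.016).

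Of 53 transporters and brush border proteins that recover nutrients, 7 were higher in males and 3 higher in females, with a median of 0.18. With each mouse left out it was 3 (without MM5, FM1 or FM5) to 11 (without FM4) higher in males and 1 (without MM3, MM5, FM1 or FM5) to 8 (without FM3) higher in females. *Slc5a8*, a sodium-coupled carrier of lactate and other monocarboxylates, averaged 310.3 ± 70.4 CPM in males and 76.3 ± 22.0 CPM in females (SD, n = 5 each). *Slc7a12*, an amino acid transporter, was at 27.6, 14.8, 19.2, 13.2 and 14.1 CPM in the 5 males and 167, 241, 214, 295 and 232 in the 5 females. The females and males stood apart, with females higher (log2 fold change −3.69 ± 0.25 (SE), adjusted p = 8.0e-06). *Mme*, the brush border peptidase neprilysin, averaged 199 ± 14.0 CPM in males and 332 ± 42.1 CPM in females (log2 fold change −0.68 ± 0.11 (SE), adjusted p = 0.0025), a call that ended without FM1, FM5, MM3, MM4 or MM5 (adjusted p up to 0.017).

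Among genes of fatty acid and ketone metabolism, 11 of 62 were higher in males and 6 higher in females. With each mouse left out it was 7 (without FM1) to 13 and 3 (without MM3, MM5 or FM5) to 9 (without FM3). The male genes included uptake and oxidation steps: *Cd36*, a fatty acid translocase, was at 559, 777, 647, 766 and 977 CPM in the 5 males and 146, 149, 143, 128 and 136 in the 5 females. The males and females stood apart, with males higher (log2 fold change 2.41 ± 0.15 (SE), adjusted p = 4.6e-06). *Cpt1a*, the entry step to mitochondria, was higher in males (log2 fold change 0.69), as were the medium-chain acyl-CoA synthetases *Acsm3* and *Acsm2*. The call of *Acsm2* ended without FM1, FM5 or MM5 (adjusted p up to 0.012). *Acsm3* averaged 732 ± 272 CPM in males and 2.27 ± 1.65 CPM in females (SD, n = 5 each). The female genes included synthesis steps: *Scd1*, the stearoyl-CoA desaturase, was at 258, 291, 315, 352 and 252 CPM in the 5 males and 730.4, 1397, 1563, 1393 and 1215 in the 5 females. Every female lay above every male (log2 fold change −1.95 ± 0.16 (SE), adjusted p = 3.9e-05). *Elovl6*, which elongates fatty acids, was at 36.1, 34.6, 31.8, 39.7 and 37.4 CPM in the 5 males and 102, 94.8, 102, 118 and 109 in the 5 females. All females exceeded all males (log2 fold change −1.53 ± 0.10 (SE), adjusted p = 8.0e-06). *Scd1* is also abundant in fat, and its level in FM3, the mouse with adipose markers, was the highest of the females. The part of fat in these values was not tested. Of 23 cholesterol synthesis genes 2 went each way: *Idi1*, the isopentenyl diphosphate isomerase, was among those higher in males (log2 fold change 1.83), and *Cyp51*, the lanosterol demethylase, among those higher in females (−0.84). When each mouse was left out, 2 to 4 (without FM4) were higher in males and 0 (without MM1, MM3, MM4, FM1 or FM2) to 2 higher in females. *Cyp51* overlapped between the sexes and lost its call with KBW as a covariate and without each mouse other than FM3 and FM4 (adjusted p up to 0.074). The call of *Cpt1a* ended without each mouse other than FM3 and FM4 (adjusted p up to 0.057).

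Receptors and enzymes for steroid and pituitary hormones were called for 13 of 37 members, 8 higher in males and 5 higher in females, with a median of 0.25. With each mouse left out it was 4 (without MM5, FM1 or FM5) to 13 (without FM4) higher in males and 3 (without MM4, MM5, FM1 or FM5) to 6 higher in females. *Esr1*, the estrogen receptor alpha, was at 13.3, 11.8, 14.9, 16.0 and 15.3 CPM in the 5 males and 6.91, 8.69, 9.11, 7.07 and 9.63 in the 5 females. Every male lay above every female (log2 fold change 0.85 ± 0.13 (SE), adjusted p = 0.0025). The call ended with KBW as a covariate and without FM1, FM5, MM3, MM4 or MM5 (adjusted p up to 0.021). *Prlr*, the prolactin receptor, was at 44.0, 29.6, 32.6, 17.0 and 14.7 CPM in the 5 males and 145, 256, 208, 311 and 283 in the 5 females. No male reached the lowest female (log2 fold change −3.20 ± 0.35 (SE), adjusted p = 2.6e-04). *Ghr*, the growth hormone receptor, overlapped (log2 fold change 0.35 ± 0.15 (SE), adjusted p = 0.16), while *Socs2*, which dampens growth hormone signals, was higher in females (−1.40), a call that ended without MM3, MM4, MM5, FM1 or FM5 (adjusted p up to 0.020). Enzymes that make or clear sex steroids differed too. *Hsd17b11* averaged 1472 ± 393 CPM in males and 269 ± 42.1 CPM in females, and *Srd5a2*, which turns testosterone into dihydrotestosterone, averaged 17.6 ± 8.74 CPM in males and 2.52 ± 0.858 CPM in females. *Akr1c18*, which inactivates progesterone, averaged 8.01 ± 3.08 CPM in males and 90.7 ± 29.8 CPM in females, and *Hsd17b14* 2.77 ± 0.486 and 20.4 ± 6.62 CPM (SD, n = 5 in each group).

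**Figure D3:**
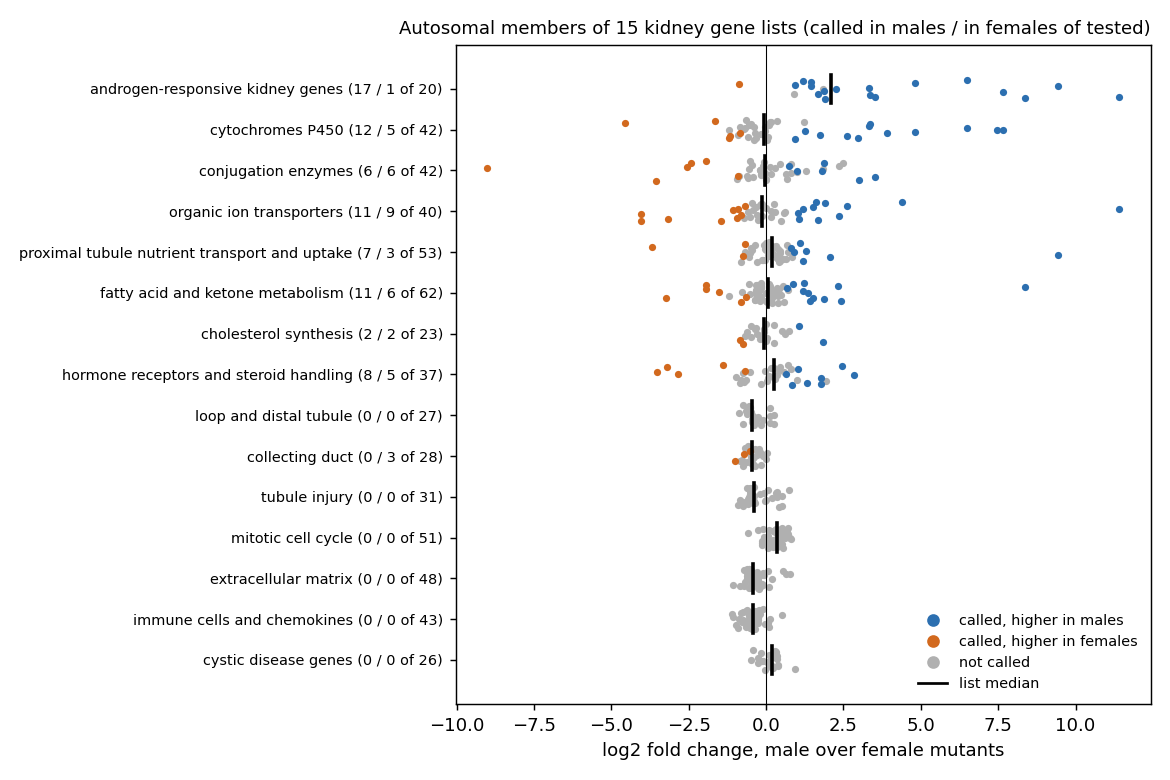
Log2 fold change, male over female mutants (horizontal axis), of every tested autosomal member of 15 kidney gene lists, 1 point per gene, with called genes in blue (higher in males) or orange (higher in females), other genes in grey and the list median as a black bar. Coloured points fill the upper 8 lists, on both sides of 0 in each, and of the lower 7 lists the collecting duct holds 3, all orange.

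Some genes with large differences stood outside these lists. *Pzp*, a protease inhibitor of the alpha-2-macroglobulin family, was at 57.3, 129, 104, 116 and 124 CPM in the 5 males and 0.303, 0.180, 0.455, 0 and 0 in the 5 females. All males exceeded all females (log2 fold change 8.97 ± 0.46 (SE), adjusted p = 1.8e-06). *Apoh*, beta-2-glycoprotein I, was at 12.0, 14.8, 9.04, 11.9 and 15.6 CPM in the 5 males and 0, 0, 0, 0 and 0 in the 5 females, so that with a floor of 3 counts per library it was at least 69.1-fold higher in males. *Hrg*, a histidine-rich plasma protein, averaged 18.3 ± 6.69 CPM in males and 0.240 ± 0.266 CPM in females. These genes are known from liver. Of 6 liver markers tested, *Ttr* was higher in males (log2 fold change 1.79, a call that ended without MM5, FM1 or FM5) and the others were not called, and the summed level of the 8 markers in the list was 382 to 532 CPM in males and 257 to 468 CPM in females. Its part in these results was not tested. *Igf2*, an imprinted growth factor, was at 1.19, 2.26, 1.38, 1.98 and 2.43 CPM in the 5 males and 121, 144, 48.4, 131 and 148 in the 5 females. The females and males stood apart, with females higher (log2 fold change −6.01 ± 0.34 (SE), adjusted p = 2.8e-06). FM3 was the lowest of the females. *Igf2r*, the receptor that clears it, went the other way, at 190.4, 255, 235, 268 and 295 CPM in the 5 males and 102, 131, 145, 172 and 156 in the 5 females (log2 fold change 0.90 ± 0.14 (SE), adjusted p = 0.0021), and was chosen after its value was seen. The call of *Igf2r* ended without MM4, MM5, FM1 or FM5 (adjusted p up to 0.019). *Igf2r* and *Airn*, a noncoding RNA transcribed across it on the opposite strand, can share reads here, since the strandedness of the counting is not given in the sources used here. *Sepp1*, which encodes the selenium carrier selenoprotein P, was at 3611, 4314, 4067, 3970.2 and 4507 CPM in the 5 males and 1016, 919, 664, 1014 and 1028 in the 5 females. No female reached the lowest male (log2 fold change 2.14 ± 0.16 (SE), adjusted p = 1.5e-05).

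To show what lies before such genes, the promoter windows (250 bases before to 50 bases after a start, RefSeq, GRCm38.p6) of 2 male and 2 female genes are printed 5′ to 3′, with AGAACA or its reverse complement, a motif of the androgen and glucocorticoid receptors, and TTCNNNGAA, a STAT site, in capitals. They were chosen because they hold one of these motifs, as did 16 of the 50 windows of named genes. *Prlr* has 3 windows, and the other 2 hold neither motif. STAT5 carries signals of the growth hormone and prolactin receptors.
*Pzp*, chr6:128526671-128526970, minus strand: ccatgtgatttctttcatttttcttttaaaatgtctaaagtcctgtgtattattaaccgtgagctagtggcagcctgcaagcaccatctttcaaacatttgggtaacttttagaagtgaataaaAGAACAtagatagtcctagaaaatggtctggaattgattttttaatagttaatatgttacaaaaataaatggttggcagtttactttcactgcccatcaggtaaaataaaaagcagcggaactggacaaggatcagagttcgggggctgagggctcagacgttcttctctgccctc
*Apoh*, chr11:108395047-108395346, plus strand: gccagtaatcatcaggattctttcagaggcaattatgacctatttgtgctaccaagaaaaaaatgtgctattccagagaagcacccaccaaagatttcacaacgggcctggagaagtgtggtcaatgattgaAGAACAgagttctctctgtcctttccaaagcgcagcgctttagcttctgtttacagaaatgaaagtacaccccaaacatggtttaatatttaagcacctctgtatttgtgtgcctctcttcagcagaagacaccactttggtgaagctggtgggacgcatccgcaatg
*Prlr*, chr15:10223656-10223955, plus strand: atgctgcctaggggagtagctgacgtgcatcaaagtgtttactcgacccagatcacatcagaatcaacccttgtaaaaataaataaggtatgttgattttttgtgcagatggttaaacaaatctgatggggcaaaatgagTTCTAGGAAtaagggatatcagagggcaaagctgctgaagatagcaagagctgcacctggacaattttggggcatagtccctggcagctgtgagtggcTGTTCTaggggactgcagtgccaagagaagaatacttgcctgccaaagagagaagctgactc
*Slc17a2*, chr13:23806743-23807042, plus strand: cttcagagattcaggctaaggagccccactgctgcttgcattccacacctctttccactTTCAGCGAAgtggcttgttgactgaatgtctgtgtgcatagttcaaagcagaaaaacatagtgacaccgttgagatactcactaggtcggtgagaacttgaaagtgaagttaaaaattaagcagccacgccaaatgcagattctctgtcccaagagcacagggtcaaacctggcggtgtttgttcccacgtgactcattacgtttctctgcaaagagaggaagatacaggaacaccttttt
The letters AGAACA stood, on either strand, in 13.9% of 496 windows of genes higher in males, 14.0% of 258 windows of genes higher in females and 12.7% of 13454 windows of all genes tested. TTCNNNGAA stood in 6.45, 7.75 and 7.08% of the same windows. These shares over all called genes lay close to the background, and a match of letters is not a bound site. Among genes that differed over 2-fold, AGAACA stood in 16.4% of 214 male and 16.0% of 119 female windows. TTCNNNGAA stood in 6.07 and 9.24% of these, and the differences between shares were not tested. Other motifs were searched as well and are not reported here. Windows were found for 10553 of the 13914 genes. The *Slc17a2* window starts before a member of the phosphate transporter family that averaged 0.46 ± 0.216 CPM in males and 16.0 ± 6.55 CPM in females.

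The same comparison in the controls, with 5 males and 5 females, called 2432 of 13628 autosomal genes (17.8%). Of the 755 genes called in mutants, 748 were tested in controls, and 681 were called there with the same direction. The median log2 fold change of the genes higher in males was 0.90 in mutants and 0.80 in controls, and that of the genes higher in females −0.98 and −0.94. The genes were picked by their test in mutants, which by itself raises their sizes there, so the medians do not compare the groups. The 681 were 28.0% of the genes called in controls. The sex-by-genotype term, which tests whether the difference in mutants differs from that in controls, called 0 of 14303 autosomal genes in edgeR, with 596 (4.17%) at an unadjusted p under 0.05, and 18 (0.126%) with DESeq2. The smallest adjusted p in edgeR was that of *Cyp2e1*, which was higher in males by 3.35 on the log2 scale in mutants and 4.42 in controls (difference −1.08, adjusted p = 0.013). This gene is named because of that value. *Cyp2j13* (7.65 in mutants, 8.98 in controls), *Cyp4b1* (3.32 and 4.50), *Abcc3* (−4.03 and −5.77) and *Slc7a12* (−3.69 and −5.15) had larger values in controls, and each of these differences was called by DESeq2 but not by edgeR (adjusted p = 0.25 to 0.35). *Elovl6* (−1.53 and −2.04) was called by neither (adjusted p = 0.35 in edgeR). *Apoh* went the other way: females averaged 0.131 CPM in controls and had no counts in mutants, and the term was called by neither (adjusted p = 0.35 in edgeR). *B4galt5* (1.28 and 0.54) and *Cachd1* (0.42 and −0.30), called by DESeq2 alone, also had larger values in mutants and were chosen after their values were seen. Of the 18 genes called by DESeq2, only these and *Foxred2* had larger values in mutants, and all others had larger values in controls. The largest difference was that of *Ugt2b37* (1.84 in mutants and 6.72 in controls, difference −4.94, adjusted p = 0.059 in edgeR). Without FM4 edgeR called it (adjusted p = 4.9e-04). *Ttpa*, the vitamin E transfer protein, and *Foxred2* differed in mutants (1.47 and 1.17) with 0.28 and 0.09 in controls. They were picked for this pattern, and their difference was not called in edgeR (adjusted p = 0.44 and 0.27), although DESeq2 called that of *Foxred2*.

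**Figure D4:**
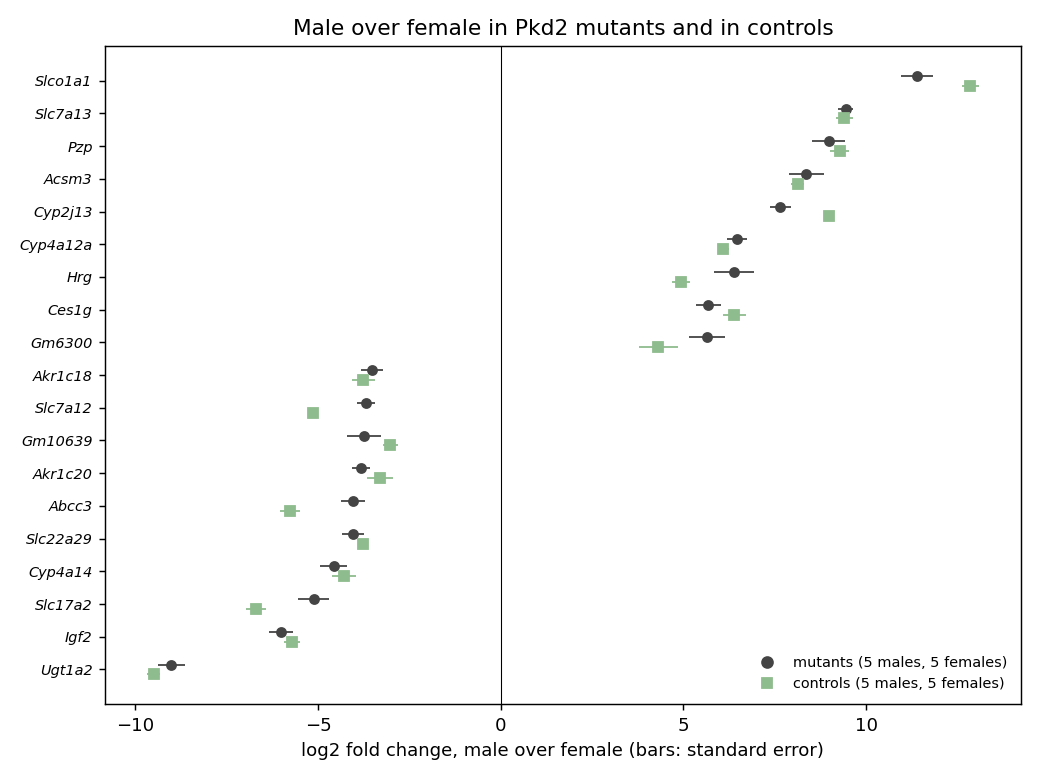
Log2 fold change, male over female, with its standard error (horizontal axis) of the 19 genes with the largest differences in mutants that have counts in both sexes, for mutants (dark circles) and controls (green squares). All 19 keep their side of 0 in controls, and *Slco1a1*, *Cyp2j13*, *Slc7a12*, *Abcc3* and *Slc17a2* lie farther from 0 in controls by more than 1 on the log2 scale, while *Hrg* and *Gm6300* lie nearer to 0 in controls by more than 1.

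No gene of the lists of injury and cystic disease was called in this comparison. Of 31 tubule injury genes, 51 mitotic genes, 48 extracellular matrix genes, 43 immune genes and 26 cystic disease genes, 0 were called by edgeR, while 5.43% of all genes were. At an unadjusted p under 0.05 there were 7, 8, 10, 4 and 10, against 30.6% of all genes. DESeq2 called 1, 0, 4, 0 and 2, against 13.7% of all genes. The medians were −0.40, 0.34, −0.42, −0.44 and 0.17. Levels of some injury genes spread widely within each sex. *Havcr1*, the kidney injury molecule KIM-1, was at 344, 37.6, 115, 82.6 and 36.6 CPM in the 5 males and 162, 116, 163, 9.66 and 11.7 in the 5 females. The sexes overlapped (log2 fold change 0.41 ± 0.70 (SE), adjusted p = 0.73). *Spp1*, the secreted phosphoprotein osteopontin, was at 8772, 1846, 3494, 3000.1 and 1728 CPM in the 5 males and 9766, 7616, 8434, 3023 and 2654 in the 5 females. The sexes overlapped (log2 fold change −0.86 ± 0.40 (SE), adjusted p = 0.18). For *Spp1*, MM1, FM1, FM2 and FM3 had high levels and the other 6 mice low ones.

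KBW averaged 1.68% ± 0.338 in male and 1.18% ± 0.261 in female mutants (SD, n = 5 each), and the comparison was also made with KBW as a covariate, that is between males and females of equal relative kidney weight, with 1 slope for both sexes. It called 1392 of 13914 genes (10%), 797 (5.73%) higher in males and 595 (4.28%) higher in females, and kept 564 of the 755. Now 17 of 31 injury genes, 16 of 48 matrix genes and 15 of 43 immune genes were higher in females and 0 higher in males, with medians of −1.21, −1.01 and −1.37. *Spp1* had a log2 fold change −2.02 ± 0.19 (SE), adjusted p = 7.4e-05 in this fit, and *Sox4*, a transcription factor of injured tubules, a log2 fold change −1.42 ± 0.18 (SE), adjusted p = 4.2e-04. The macrophage gene *Cx3cr1*, the fractalkine receptor, had a log2 fold change −1.60 ± 0.18 (SE), adjusted p = 2.3e-04, the complement gene *C1qa* −1.67 (adjusted p = 0.003) and the matrix protease gene *Mmp14* −1.41 (adjusted p = 8.1e-04). The mitotic genes stayed at 0 called, with a median of −0.19. Of the proximal tubule transporters, 14 of 53 were higher in males in this fit, 4 without MM2 and 6 without FM1, with the phosphate carrier *Slc34a1* among them (log2 fold change 1.20, adjusted p = 0.0018). In controls, compared without KBW, 9 of 29 injury, 18 of 47 matrix and 8 of 35 immune genes were higher in females. There 3, 1 and 1 were higher in males, while 17.8% of all genes were called. Summed injury levels were 1851 to 2259 CPM in control males and 3396 to 3956 CPM in control females. For immune genes the sums were 748 to 870 and 986 to 1129 CPM, and matrix sums overlapped. The part of this difference in the fit with KBW was not tested.

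MM2 and FM2 had nearly the same KBW, 1.22 and 1.24%, and the summed level of the injury list was 3283 CPM in MM2 and 10449 CPM in FM2. For *Spp1* these mice had 1846 and 7616 CPM, for *Sox4* 18.4 and 59.4 CPM and for *Cx3cr1* 13.9 and 37.2 CPM. Females FM1 and FM3, at 1.38 and 1.46%, had list sums of 13594 and 12508 CPM, while males MM4, MM5 and MM3, at 1.54, 1.71 and 1.79%, had 5218, 3011 and 5756 CPM. MM1, the male with the largest kidney, had 12777 CPM. FM4 and FM5, with the smallest kidneys, had 4506 and 4150 CPM. The range of KBW was shared by the sexes only between 1.22 and 1.46%, where MM2 was the only male. Without MM2 the same fit called 1 of 31 injury, 0 of 49 matrix and 1 of 45 immune genes, with medians of −1.32, −1.28 and −1.72, while calls over all genes fell from 1392 (10%) to 128 (0.908%). Without each of the other 9 mice, 3.35% (without FM1) to 12.2% (without FM4) of all genes were called, and 8 to 21 injury genes, 4 to 19 matrix genes and 3 to 22 immune genes were called higher in females. Without FM3, the mouse with fat, 12, 5 and 4 were, and 2 matrix genes were higher in males. Without FM4 it was 21, 18 and 22.

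**Figure D5:**
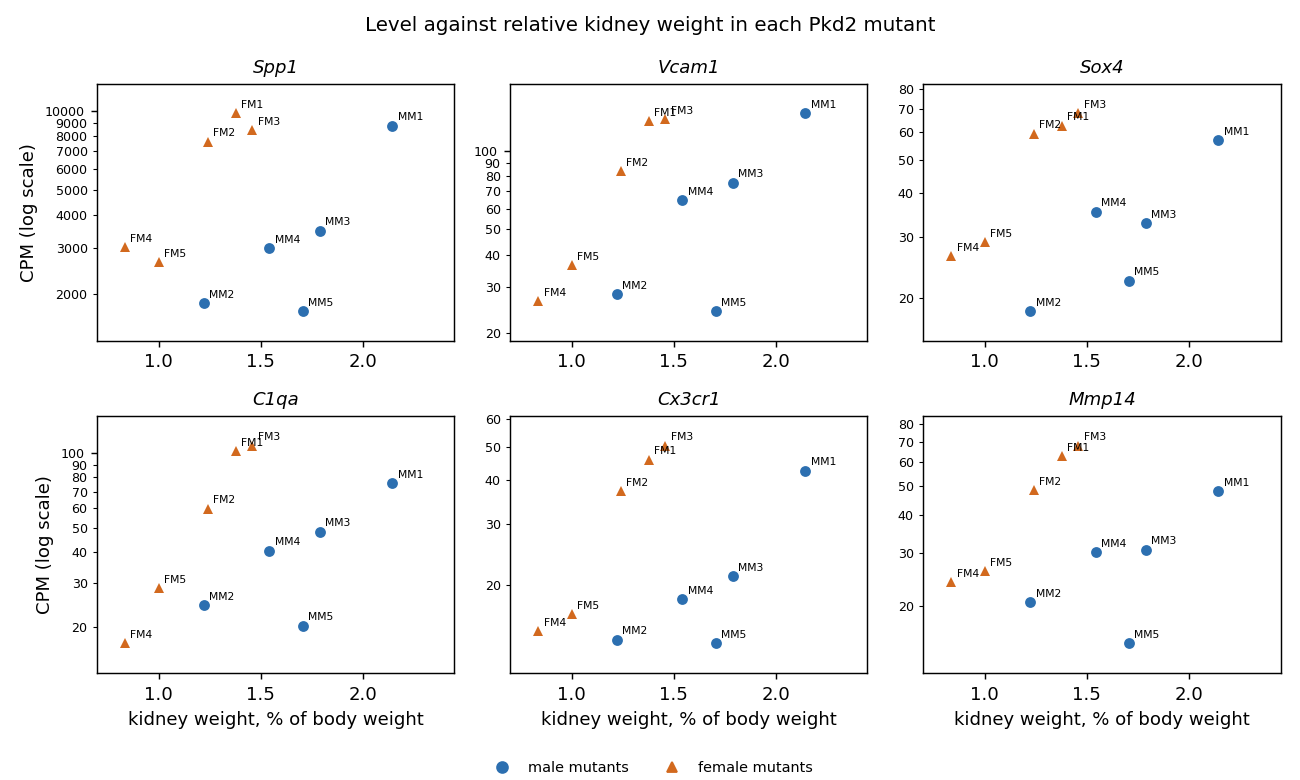
Level (vertical axis, CPM on a log scale) of 3 injury genes (*Spp1*, *Vcam1*, *Sox4*), 2 immune genes (*C1qa*, *Cx3cr1*) and 1 matrix gene (*Mmp14*) against kidney weight as a percentage of body weight (horizontal axis) in each male (blue circles) and female (orange triangles) mutant. In each panel FM1, FM2 and FM3, at 1.24 to 1.46%, lie above MM2, MM3, MM4 and MM5, at 1.22 to 1.79%. Of the males only MM1, at 2.15%, lies near these females. The genes were picked from their lists. Summed levels of the injury and immune lists had the same order of these mice, but those of the matrix list did not. Matrix sums were 6424, 7616 and 9735 CPM in FM1, FM2 and FM3. In MM2, MM3, MM4 and MM5 they were 6322, 6852, 7834 and 6566 CPM.

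Gene lists of later nephron segments had medians below 0 and few calls. Of 28 collecting duct genes 3 were higher in females and 0 higher in males, with a median of −0.45: *Rhcg*, an ammonia transporter of intercalated cells, at 71.0, 82.5, 78.7, 83.7 and 81.6 CPM in the 5 males and 129.9, 119.98, 102, 153 and 152 in the 5 females (log2 fold change −0.70 ± 0.12 (SE), adjusted p = 0.0041), the water channel gene *Aqp4* (−1.01) and *Car2* (−0.53), a carbonic anhydrase, whose call ended without each mouse other than FM3 and FM4 (adjusted p up to 0.071). The call of *Aqp4* ended with KBW as a covariate and without FM1, FM2, FM5, MM2, MM3 or MM5 (adjusted p up to 0.037). The call of *Rhcg* ended with KBW as a covariate and without FM1, FM5, MM3 or MM5 (adjusted p up to 0.031). None of the 27 loop and distal tubule genes was called, with a median of −0.44, and DESeq2 called 5 of them higher in females, against 5.25% of all genes. Without FM3, 8 collecting duct genes and 6 of the loop and distal tubule were called higher in females, and without MM3, MM5, FM1 or FM5 none of either. The shares of all genes higher in females were 2.85% and 0.492 to 0.624% in these fits. Of 10 podocyte genes *Synpo* was higher in females (−0.69), with a call that ended without each mouse other than MM1, FM3 and FM4 (adjusted p up to 0.046), and the summed level of the 10 was 294 to 415 CPM in males and 473 to 576 CPM in females, without overlap. Their part in the other results was not tested. Endothelial and urothelial markers had 0 calls of 10 and 9, with medians of −0.16 and −1.05 and overlapping sums (577 to 729 and 641 to 791 CPM, 15.3 to 59.9 and 24.3 to 92.9 CPM). Of 3 skeletal muscle genes tested, *Myh1* was higher in females (−6.44), with list sums of 1.30 to 2.49 CPM in males and 4.74 to 11.6 CPM in females. Of the few tested markers of red blood cells (1), adrenal gland (3), adipose tissue (2) and pancreas (1), 0 were called. In controls more genes of some of these lists were called, all higher in females, while 17.8% of all genes were called. They were 15 of 27 loop and distal tubule, 10 of 28 collecting duct, 9 of 10 podocyte and 9 of 10 endothelial genes. The medians there were −0.46, −0.38, −0.61 and −0.47. Urothelial markers had 0 calls of 9 in controls as well.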

How the data were processed

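Kidney RNA of 20 mice was sequenced, and the 10 *Pkd2* mutants were analysed here, with the 10 controls for values side by side. Per the submitters' processing notes, the authors used fastp 0.23.2 for trimming, STAR 2.7.10b with mm10 for alignment and R 4.3.0, and deposited raw counts for each gene symbol. The counting tool, the annotation and the strandedness are not given in the sources used here. Groups, litters and weights came from the labels, and the kidney weight was taken as that of 1 kidney, in g.

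Of 24411 genes, 23205 were placed on autosomes with RefSeq (GRCm38.p6), and genes on X, on Y or without a place were left out of every count. In R 4.3.3, edgeR 4.0.16 was used (TMM, filterByExpr by sex, quasi-likelihood test of sex with litter as a covariate, Benjamini-Hochberg adjustment over all 14416 genes tested), and genes with an adjusted p under 0.01 were called. The standard error was the log2 fold change divided by the square root of F. The sex-by-genotype term was fitted over the 20 mice, with genotype and the combinations of litter and sex in the design. The comparison of male and female mutants was also tested on simulated counts, which held no effect of litter or KBW. Of 200 genes changed by 1 on the log2 scale, the main fit called 119 in the right direction. The fit with KBW as a covariate called 30 of them. The sex-by-genotype design was not simulated.

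Named genes were the 10 largest differences in each direction among called genes with at least 5 CPM and no overlap, the 2 called genes with the smallest p in each direction of each list, the 5 called genes with the highest CPM in each direction, the 3 of these in each direction with the smallest p of the sex-by-genotype term, and *Pkd1*, *Pkd2*, *Esr1*, *Prlr* and *Ghr*. Other genes are named as list members needed to describe a list or were chosen after their values were seen. The comparison, the 24 gene lists and the rule were chosen with earlier results of these data known. Alternatives were DESeq2 1.42.0 (size factors or Wald test), other filters on low counts, no litter term, all 20 mice in 1 fit, autosomal genes alone, KBW as a covariate, an adjusted p under 0.05 and each mouse left out. With 5 mice a sex and 11307741 to 19324073 counts, log2 fold changes had a standard error of 0.156 at the median. The fit with KBW was also repeated without each mouse and without litter, which was chosen after seeing the data. Results of some list members are not reported here.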

Additional observations from a re-analysis of the deposited data

Results flagged for a closer look

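In 5 of 115 groups of 5 mutants checked, 1 value stood far from the other 4, where chance gives about 1 group in 20. FM3 was the lowest female for *Igf2*, at 48.4 CPM against 121 to 148 CPM, and for *Kap*, at 2593 CPM against 8207 to 10054 CPM. The summed adipose markers were highest in this mouse (476 CPM), and their part in these values was not tested. MM4 was the lowest male for *Hao2*, a hydroxyacid oxidase, at 235 CPM against 324 to 356 CPM. FM4 had the fewest genes detected, 14850 against 17294 to 17724, and the fewest genes with exactly 1 count, 76 against 708 to 827.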

How the results depend on the processing

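Among settings that keep the 10 mutants, the count of 755 genes between male and female mutants (501 higher in males, 254 in females) moved most with all 20 mice in 1 fit (2285, with 1281 and 1004), an adjusted p under 0.05 (2043, with 1207 and 836), DESeq2's Wald test (1907, with 1176 and 731) and KBW as a covariate (1392, with 797 and 595). DESeq2 size factors, the filters on low counts, no litter term and autosomal genes alone gave 728 to 891. With each mutant left out, the count was 237 (without FM1) to 1286 (without FM4), with 168 to 906 higher in males and 69 (without FM1 or FM5) to 399 (without FM3) higher in females. Litter C held only MM5 and FM5, so leaving out one leaves the other to fix the litter term. FM1 was the only female mutant of litter A, so without FM1 that litter no longer compares the sexes. The cause of the shifts was not tested.

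The sex-by-genotype count of 0 became 18 with DESeq2, 2 without a filter, 1 with at least 10 counts in every mouse and 1 at an adjusted p under 0.05 (*Cyp2e1*). With each of the 20 mice left out it was 0 to 3, the latter without FM4. It was 2 without FM5 or FC5 and 1 without MM2.

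Of 51 named genes called, 28 were called in all 18 settings that keep the threshold, 9 in the 17 that tested them (not with at least 10 counts in every mouse), 14 lost the call in at least 1, and none changed sign. All 14 lost it without FM1 (among them *Serpina1f*, *Cyp2d26*, *Mme*, *Cyp51*, *Rhcg*, *Aqp4*, *Gm10639*, *Kap*, *Acsm2*, *Psap*, *Napsa*, *Neat1* and *Esr1*), 12 without FM5 or MM5, 9 without MM3 or MM4, 7 with KBW as a covariate, 3 without FM2 and 2 without MM1 or MM2. No paired analysis was possible because the labels give no replicate numbers that tie a male to a female.

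The fit with KBW was repeated without each mouse and without litter, which was decided after seeing the data. Genes called ranged from 128 without MM2 to 1721 without FM4, and without litter it called 13 of 31 injury, 8 of 48 matrix and 13 of 43 immune genes, all higher in females. Over all genes the fit without litter called 9.21%.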

Other observations

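Several called genes lay side by side with relatives called in the same direction. Among genes higher in males, 11 blocks held at least 3 called genes with gaps of at most 200000 bases, and among genes higher in females 6 blocks did. The carboxylesterases *Ces1e*, *Ces1f* and *Ces1g*, which cleave esters of lipids and drugs, formed such a block on chromosome 8 with log2 fold changes of 1.34 to 5.67. *Ces1f* averaged 1064 ± 193 CPM in males and 115 ± 28.7 CPM in females (SD, n = 5 each), and the call of *Ces1e* ended without MM3, MM4, MM5, FM1, FM2, FM3 or FM5 (adjusted p up to 0.041 in edgeR). On chromosome 3 the alcohol dehydrogenase *Adh1* averaged 592 ± 38.7 CPM in males and 121 ± 22.6 CPM in females. On chromosome 13, the aldo-keto reductases *Akr1c18*, *Akr1c19* and *Akr1c12* were higher in females, with log2 fold changes of −3.53, −1.27 and −1.68, and the call of *Akr1c19* ended without MM5, FM1 or FM5 (adjusted p up to 0.019). Related genes that lie together can share reads, so these members are not independent. These blocks were chosen after their values were seen. By chromosome, 3.47% (chromosome 5) to 7.72% (chromosome 19) of tested autosomal genes were called.

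*Aadat*, an aminotransferase of kynurenine and aminoadipate, averaged 346 ± 87.1 CPM in males and 1300.4 ± 378 CPM in females, with a log2 fold change of −1.95 in mutants and −2.32 in controls. *Cndp2*, a dipeptidase, went the other way, at 2560 ± 345 CPM in males and 419 ± 90.7 CPM in females. *Neat1*, a nuclear noncoding RNA, had a log2 fold change of −1.03 in mutants, where the sexes overlapped, and −0.20 in controls (adjusted p = 0.37 in edgeR). Its sex-by-genotype term was not called (adjusted p = 1 in edgeR), and its call in mutants ended without FM1, FM5, MM3 or MM5 (adjusted p up to 0.018).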
